A study of Mus musculus with 26 samples.

Results

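Subjective day is the stretch of the circadian cycle when the lights would have been on, although the mice stay in constant darkness. The comparison takes the 8 of 26 libraries collected at CT4, CT8, CT28 and CT32, which are 4 from control mice (Ctrl) and 4 from mice with a lesion of the suprachiasmatic nuclei (SCNx). Of 55416 genes listed, the 14163 with a mean level of 1 CPM or more over these 8 libraries were tested, CPM being the estimated count of a gene scaled to the same library total. Both groups were adult male C57Bl6J mice with no engineered allele and no test compound, operated on under isoflurane with an analgesic (NUROFEN) given afterwards. Ctrl mice had undergone sham surgery, and SCNx mice had received bilateral electrolytic lesions of the suprachiasmatic nuclei (SCN), the pacemaker of the hypothalamus that sets the phase of clocks in other tissues. Mice of both groups were checked for activity rhythms in constant darkness, were kept under a light-dark cycle again for a week, and were then left in darkness from CT0 onwards. The choroid plexus of the 4th ventricle, the epithelial tissue that makes cerebrospinal fluid, was pulled out with pincers, and polyadenylated RNA was sequenced. Each library is 1 mouse, and Ctrl CT4 stands for the sham-operated mouse killed at CT4. The 4 mice of a group therefore cover 2 hours of the cycle on each of 2 days, and the spread within a group contains the time of day as well as differences between mice. For a mouse without an SCN, circadian time is time since the last expected dawn and not a phase of its own clock.

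The libraries held between 42263400 and 49527655 estimated counts. Markers of choroid plexus epithelium, such as the thyroid hormone carrier Ttr, summed to between 114300 and 160800 CPM, so the tissue label matched its defining genes in all 8. 2 libraries also held brain transcripts. The 13 markers of neurons and cerebellum summed to 356.7 CPM in Ctrl CT4 and to 581.9 CPM in SCNx CT32, against 8.6 to 21.7 CPM in the other 6 libraries. Ctrl CT4 was high in Slc17a7, a vesicular glutamate transporter of forebrain and cerebellar neurons (73.9 CPM), whereas SCNx CT32 was high in Slc17a6, its counterpart of brainstem and diencephalon (45.1 CPM). The granule cell gene Gabra6 stayed at or below 0.363 CPM in all 8. The 5 astrocyte markers summed to 774.7 and 1013 CPM in these same libraries and to between 139.6 and 169 CPM elsewhere. Most of the sum elsewhere was Aldh1l1, at 110.3 to 125.5 CPM. Aldh1l1 was not raised in Ctrl CT4 and SCNx CT32 (102.7 and 106.5 CPM), so the higher sums came from the other astrocyte markers. Of the tested genes, 1148 peaked in Ctrl CT4 or SCNx CT32 at over 3 times their median. Since 1 such library lies in each group, counts are also given without these 2. SCNx CT8 stood apart in Dct, a melanocyte enzyme, at 52.6 CPM against 3.88 to 6.16 CPM in the others. Mlana, of the same marker list, measured 3.05 CPM there and at most 0.0886 CPM in the others. Pmel and Tyrp1, also of that list, did not stand apart, at 1.66 and 0.586 CPM in SCNx CT8. The others ranged from 1.31 to 2.40 CPM for Pmel and from 0.295 to 0.599 CPM for Tyrp1. Blood markers (3 haemoglobin genes, whose near-identical copies can share reads, and Alas2, an enzyme of erythroid haem synthesis) summed to 942 to 1310 CPM in Ctrl and to 240, 1015, 536 and 266 CPM in SCNx CT4, CT8, CT28 and CT32. The exact permutation test on the log2 sums of 4 against 4 libraries, which cannot go below 0.0286, gave a two-sided p of 0.0857 for blood (adjusted p over the 12 marker lists 0.771), and no list passed. In bulk tissue, fewer cells of a type and less RNA per cell cannot be told apart.

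**Figure D1:**
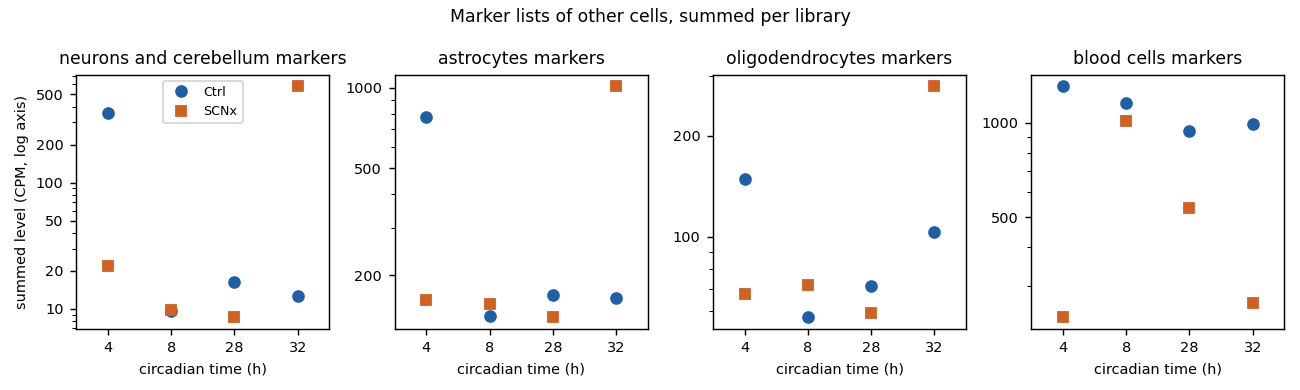
Summed CPM (log axis, scaled to library size) of the markers of neurons and cerebellum, astrocytes, oligodendrocytes and blood cells, by circadian time, with 1 point per mouse (circles Ctrl, squares SCNx). Ctrl CT4 and SCNx CT32 stand above the rest in the 3 brain lists, at 356.7 and 581.9 CPM for neurons, and 3 of the 4 SCNx libraries lie below all Ctrl libraries for blood.

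No gene was called between SCNx and Ctrl in subjective day. With edgeR's quasi-likelihood test and Benjamini-Hochberg adjustment over the 14163 genes, 0 passed an adjusted p of 0.05 (0%) and 0 passed 0.25, with 0.779 as the minimum. Before adjustment, 646 genes (4.56%) had a p under 0.05, of which 310 were lower in SCNx (2.19%) and 336 higher (2.37%). That count rested on the libraries, with 343 genes without Ctrl CT32 and 2196 without SCNx CT8 (866 lower and 1330 higher). Scaling to library size alone, without TMM, moved the median log2 fold change of all genes from 0.02 to 0.08 and the split to 117 lower and 925 higher. The typical difference was small, with a median absolute log2 fold change of 0.106 and a 95th percentile of 0.841. In 209 genes (1.48%) all 4 SCNx libraries lay below all 4 Ctrl libraries, and in 198 (1.4%) all 4 lay above. A random order of 8 libraries would separate 4 from 4, in either direction, with a probability of 0.0286, and 2.87% of genes were separated. Without Ctrl CT4 and SCNx CT32 the counts were 690 (4.87%) lower and 639 (4.51%) higher with 3 libraries a side. Fewer libraries a side separate more genes by chance, so these counts cannot be set against those with 4 a side. limma-trend also called 0 genes, whereas the DESeq2 Wald test called 23 (0.162%), 12 lower (0.0847%) and 11 higher (0.0777%), and 65 at an adjusted p of 0.25 (0.459%). Among its 23 were the clock genes Nr1d1 and Cry1, with adjusted p of 0.000127 and 0.00755 in DESeq2. The window had been described as a phase when Nr1d1 is high in Ctrl, so the call of Nr1d1 follows in part from that choice. Gm53034 was also among the 23 and rested on Ctrl CT4 alone, with 15.3 CPM there and 0 in the other 7 libraries. So did Gm28925 and Gm50174, with 12.65 and 10.24 CPM in Ctrl CT4 and at most 0.0431 and 0.048 CPM in the other 7. DESeq2 was run with its handling of outlier counts switched off.

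Circadian clocks run on a loop of transcription and translation. CLOCK or NPAS2 pairs with BMAL1 (gene Arntl) on E-boxes and drives the Per and Cry genes, whose proteins repress that pair, and drives Nr1d1 and Nr1d2 (REV-ERB α and β), which repress genes with ROR elements such as Arntl, while RORs activate them. A further arm joins the activators DBP, TEF and HLF and their competitor NFIL3 on D-boxes. Of 19 clock genes described, 17 had a promoter entry in RefSeq (GRCm38.p6, 250 bases before to 50 after the start of the gene). E-boxes (CACGTG, the same on both strands) lay in those of Bhlhe41, Ciart, Cry1, Per1 and Tef, against 8.09% of 27025 genes. ROR elements (TAGGTCA or TGGGTCA, both strands) lay in those of Arntl and Nfil3, against 7.35% of genes, and the D-box TTATGTAA (both strands) in that of Per3, against 1.11%. The stretches below are shown because they hold the elements of the 3 arms in genes whose values follow, with the element in capitals, each 5′ to 3′ on the minus strand of GRCm38.p6. They are Cry1 (chr10:85185075-85185154), Ciart (chr3:95882259-95882358), Per3 (chr4:151044796-151044885) and Nfil3 (chr13:52981040-52981099, where TGACCTA is the ROR element read from its other strand).
Cry1: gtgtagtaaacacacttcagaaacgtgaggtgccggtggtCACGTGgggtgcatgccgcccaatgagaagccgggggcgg
Ciart: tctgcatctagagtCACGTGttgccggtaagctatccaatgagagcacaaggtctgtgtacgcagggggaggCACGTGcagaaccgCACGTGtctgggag
Per3: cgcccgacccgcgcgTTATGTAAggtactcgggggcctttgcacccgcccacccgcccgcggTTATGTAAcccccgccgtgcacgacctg
Nfil3: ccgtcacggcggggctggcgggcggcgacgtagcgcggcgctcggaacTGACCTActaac
A motif match describes the letters in the window and does not show binding.

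Of the 19 clock genes, 0 were called, 1 lay without overlap below Ctrl and 2 above (5.26% and 10.5%, against 1.48% and 1.4% of all genes). The same genes lay without overlap when Ctrl CT4 and SCNx CT32 were left out, where 4.87% and 4.51% of all genes did so. The clock genes were chosen with earlier results of these data known, so their shares can follow in part from that choice. Nr1d1 stood at 73.2, 92.5, 73.5 and 71.7 CPM in Ctrl CT4, CT8, CT28 and CT32 and at 21.4, 36.4, 35.0 and 14.4 CPM in the SCNx libraries of the same times. Every SCNx mouse thus lay below every Ctrl mouse, with a log2 fold change of -1.54 ± 0.29 (SE), or 2.9-fold (edgeR adjusted p = 0.779, unadjusted 0.000727). The window had been described as the phase when Nr1d1 and Aqp1 are high in Ctrl, so a higher Ctrl level of these genes follows in part from that choice. Leaving out each library in turn kept the log2 fold change between -1.72 and -1.32. Its paralog Nr1d2 overlapped between the groups, at 123 to 190.1 CPM in Ctrl and 102 to 189.8 CPM in SCNx (log2 fold change -0.20 ± 0.23).

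Rora, which encodes RORα, an activator at the elements that REV-ERBs repress, lay between 73.4 and 94.7 CPM with the groups interleaved (log2 fold change -0.02 ± 0.08). Rorb passed the minimum level only through the brain-rich libraries, with 4.72 CPM in Ctrl CT4 and 2.98 CPM in SCNx CT32 and at most 0.625 CPM elsewhere.

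Cry1, a repressor of CLOCK and BMAL1, measured 9.02, 8.29, 10.7 and 9.41 CPM in Ctrl and 16.0, 16.7, 12.8 and 22.8 CPM in SCNx. The highest value was in the brain-rich library SCNx CT32. The groups did not overlap, and the log2 fold change was 0.87 ± 0.17 (edgeR adjusted p = 0.779, unadjusted 0.00115). Leaving out each library in turn kept it between 0.698, without SCNx CT32, and 0.974. Without both brain-rich libraries it was 0.679 ± 0.135. Cry2 did overlap, at 30.5 to 40.7 CPM in Ctrl and 31.5 to 44.3 CPM in SCNx. Nfil3, the repressor on D-boxes, measured 8.30, 3.89, 8.04 and 5.91 CPM in Ctrl and 9.25, 8.71, 11.1 and 11.8 CPM in SCNx. Its SCNx values all lay above Ctrl, although only by a small margin between Ctrl CT4 and SCNx CT8, with a log2 fold change of 0.65 ± 0.24 (edgeR adjusted p = 0.779, unadjusted 0.0292).

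The other clock genes overlapped between the groups, and for several of them the Ctrl libraries fell into 2 levels by the hour. Per2, a partner of the cryptochromes, measured 8.88 and 11.4 CPM in Ctrl CT4 and CT28 but 31.0 and 31.5 CPM in Ctrl CT8 and CT32. In SCNx it lay between 28.4 and 40.4 CPM at all 4 times, near or above the later Ctrl level. Per1 showed the same arrangement, with 18.8 and 22.3 CPM at the earlier Ctrl hour, 39.9 and 42.1 CPM at the later one, and 39.4 to 49.4 CPM in SCNx. Per3 measured 16.0 and 19.4 CPM, then 36.6 and 37.7 CPM in Ctrl, against 24.7 to 38.5 CPM in SCNx. Over all 8 libraries, both hours together, the log2 fold changes were 0.51 ± 0.26 for Per1, 0.73 ± 0.42 for Per2 and 0.27 ± 0.30 for Per3.

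Arntl, encoding BMAL1, ran the other way in Ctrl, from 17.3 and 13.7 CPM at CT4 and CT28 to 2.94 and 2.57 CPM at CT8 and CT32. The SCNx mice had 7.98 CPM at CT4, 3.23 CPM at CT8, 16.9 CPM at CT28 and 16.0 CPM at CT32, so the pair at the later hour differed 4.93-fold between days against 1.14-fold in Ctrl. Dbp, an activator on D-boxes and a direct clock output, measured 31.0 and 36.0 CPM at the earlier hour and 105 and 115 CPM at the later one in Ctrl. In SCNx it measured 39.3, 87.4, 23 and 22 CPM, with SCNx CT8 alone near the later Ctrl level. Ciart, an E-box repressor also called Chrono, measured 1.17, 6.57, 0.56 and 6.51 CPM in Ctrl and 2.20, 5.17, 1.23 and 1.38 CPM in SCNx. The mouse at SCNx CT8 thus resembled Ctrl CT8 in Arntl, Dbp and Ciart while the mouse at SCNx CT32, a brain-rich library, did not. The likeness did not extend to Nr1d1 (36.4 CPM in SCNx CT8 against 92.5 CPM in Ctrl CT8), Cry1 (16.7 against 8.29 CPM) or Nfil3. Bhlhe41, a further E-box repressor, was lower in SCNx at each of the 4 times (19.7, 42.8, 20.8 and 40.2 CPM in Ctrl, 16.5, 31.1, 12.5 and 23.1 CPM in SCNx), with a log2 fold change of -0.57 ± 0.36 and overlapping groups. Npas2, a partner of BMAL1, had 17.5, 6.09, 14.5 and 5.67 CPM in Ctrl and lay between 6.57 and 10.8 CPM in SCNx. The remaining members overlapped between the groups. Clock lay at 138 to 196 CPM in Ctrl and 121 to 197 CPM in SCNx, Bhlhe40 at 28.7 to 44.3 and 29.3 to 40.2 CPM, Tef at 78.0 to 158 and 87.8 to 164 CPM, and Hlf at 42.4 to 62.1 and 44.6 to 70.7 CPM.

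**Figure D2:**
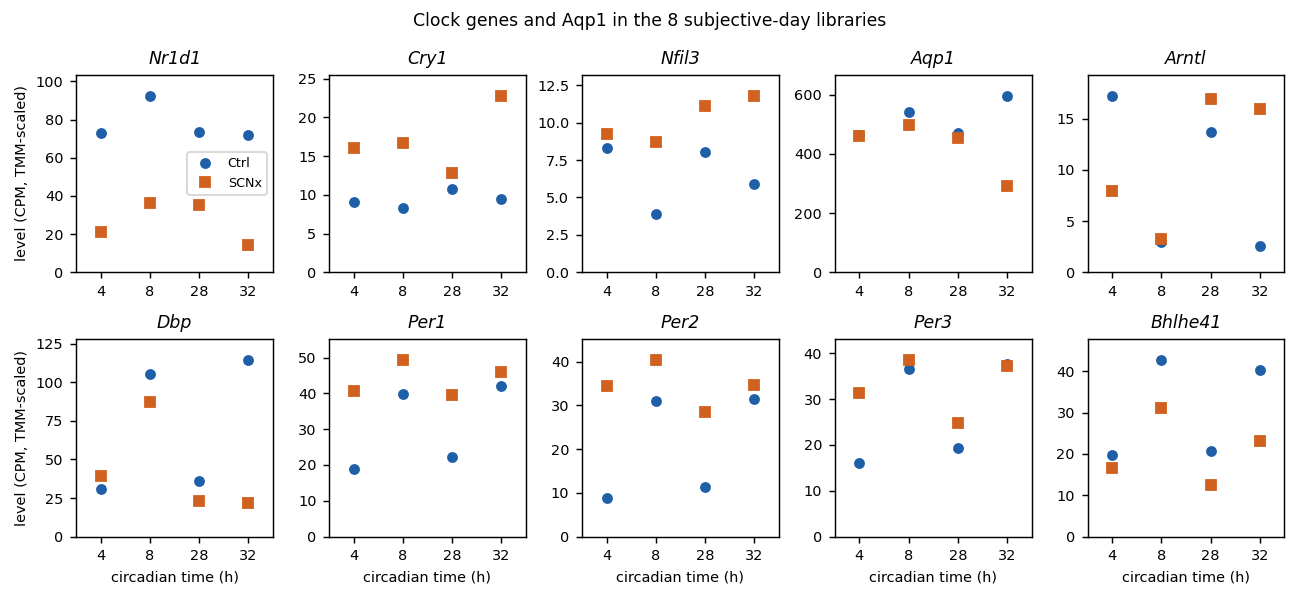
Level (CPM, TMM-scaled) of 9 clock genes and Aqp1 by circadian time (h), with 1 point per mouse (circles Ctrl, squares SCNx). Nr1d1 lies lower and Cry1 and Nfil3 higher in all 4 SCNx libraries, whereas Arntl, Dbp, Per1 and Per2 take 2 levels in Ctrl by the hour, such as 8.88 and 11.4 against 31.0 and 31.5 CPM for Per2.

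The change from the earlier to the later hour was read in each day apart. In Ctrl, 16 of the 19 clock genes moved in the same direction on both days and 5 did so by over 1 on the log2 scale on both, namely Arntl, Npas2, Per2, Dbp and Ciart. In SCNx, 13 moved in the same direction on both days and 0 did so by over 1. Repeats of a time 24 h apart were close in Ctrl at the later hour, with a median absolute log2 difference of 0.087 over the clock genes and 0.108 over all genes. For SCNx CT8 against SCNx CT32 these medians were 0.445 and 0.285, with 5 clock genes apart by over 1, among them Rorb, which was high in the brain-rich libraries. For the earlier hour they were 0.227 and 0.123 in Ctrl, and 0.27 and 0.0866 in SCNx. The brain transcripts of SCNx CT32 and Ctrl CT4 enter these values over all genes, and their part in them was not tested. A fit with the hour as a term, added after the data had been seen, called 0 genes at CT4 and CT28 (505 at an unadjusted p under 0.05, 3.57%), 0 at CT8 and CT32 (911, 6.43%) and 0 for the difference between the hours (1212, 8.56%) in edgeR. Per2 differed between the groups by 1.63 on the log2 scale at the earlier hour and by 0.26 at the later one (adjusted p of the difference 0.578, unadjusted 0.00094). For Per1 the values were 0.96 and 0.22 (adjusted p of the difference 0.578, unadjusted 0.00193).

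Aqp1, the water channel of the apical membrane of choroid plexus epithelium, measured 465, 543, 471 and 596 CPM in Ctrl and 462, 498, 454 and 293 CPM in SCNx. At the earlier hour the SCNx values lay just below the Ctrl values, and the lowest value of all was the brain-rich library SCNx CT32, in which the sum of the epithelial markers was also the lowest at 114300 CPM. The log2 fold change was -0.28 ± 0.17 (edgeR adjusted p = 0.779, unadjusted 0.135), and -0.135 ± 0.096 without SCNx CT32. Aqp11, a channel of intracellular membranes, measured 13.5, 15, 12.6 and 14.5 CPM in Ctrl and 10.7, 13.8, 9.71 and 9.17 CPM in SCNx (log2 fold change -0.36 ± 0.14, adjusted p = 0.779 in edgeR).

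The genes with the smallest p in each direction were read next. Of the 15 smallest in each direction, the 15 lower and 14 of the higher are described. Nr1d1 and Cry1 were clock genes, and each of these genes lay without overlap between the groups, as its rank makes likely. Hs3st1, a heparan sulfate sulfotransferase, had the smallest p of all tested genes (unadjusted 0.000269, edgeR adjusted p = 0.779). It measured 31.1, 31, 34 and 30.8 CPM in Ctrl and 24.2, 24.4, 24.1 and 20.3 CPM in SCNx, a log2 fold change of -0.45 ± 0.07. Npnt, which encodes the matrix protein nephronectin, measured 56.1, 54.2, 66.6 and 54.2 CPM in Ctrl and 38.5, 33.2, 43.0 and 28.7 CPM in SCNx (-0.69 ± 0.13). Itgb6, an integrin chain, lay lower by 0.37 ± 0.09, with 8.36 to 9.73 CPM in Ctrl and 6.52 to 7.41 CPM in SCNx. Espl1, the protease separase of the cell cycle, lay at 12.8 to 15.3 CPM in Ctrl and 8.45 to 10.4 CPM in SCNx.

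Wnt7b, a secreted WNT ligand, measured 16.9, 21.4, 24.5 and 24.3 CPM in Ctrl and 16.5, 12.4, 16.0 and 13.5 CPM in SCNx, so that Ctrl CT4 lay close to the SCNx mice (-0.58 ± 0.14). Hey2, a repressor downstream of NOTCH, lay at 27.8 to 29.5 CPM in Ctrl and 23.2 to 25.5 CPM in SCNx. Fgd3, a guanine nucleotide exchange factor, lay at 9.48 to 10.5 CPM in Ctrl and 6.61 to 8.11 CPM in SCNx. The others were Tmem132a, Tmx1, Mroh6, Scamp4, St3gal5, Slc35g1 and Tnfrsf19, with log2 fold changes from -0.73 for Mroh6 to -0.21 for Tmx1 and St3gal5.

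Xdh, the enzyme that turns purines into uric acid, measured 14.8, 14, 11.4 and 10.4 CPM in Ctrl and 20.9, 17.9, 25.6 and 25.6 CPM in SCNx (0.83 ± 0.16). Tra2a, a splicing factor, measured 36.4, 39.8, 41.5 and 37.3 CPM in Ctrl and 66.6, 47.4, 62.3 and 81.2 CPM in SCNx (0.73 ± 0.15). For Tra2a the Ctrl mice lay close together, while SCNx CT8 stood nearest to them. Cntfr, the ligand-binding receptor of ciliary neurotrophic factor, measured 16.6, 13.6, 11.3 and 13.1 CPM in Ctrl and 27.2, 23.8, 20.2 and 44.5 CPM in SCNx (1.08 ± 0.25), its highest value being in a brain-rich library. Unc13b, a vesicle priming factor, lay at 124 to 137 CPM in Ctrl and 151 to 180.2 CPM in SCNx (0.37 ± 0.07). Tnxb, the matrix protein tenascin-X, lay at 14.3 to 17 CPM in Ctrl and 18.8 to 23.7 CPM in SCNx. Gvin2, of the interferon-inducible large GTPases, lay at 3.90 to 5.99 CPM in Ctrl and 6.90 to 13.2 CPM in SCNx, and it belongs to a family of near-identical copies among which reads can be split. The log2 fold changes of Zbtb40, Eif5a2, Aff1, Dusp16, Thap2, Cerk and Zmynd8 lay between 0.15 for Zmynd8 and 0.37 for Zbtb40. Without both brain-rich libraries and SCNx CT8, a set chosen after the data had been seen, edgeR called 3 genes, of which Tra2a was 1 (log2 fold change 0.705, adjusted p = 0.034). The other two, Gm49388 and Gm49909, are unnamed gene models with fitted log2 fold changes of 11 each.

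**Figure D3:**
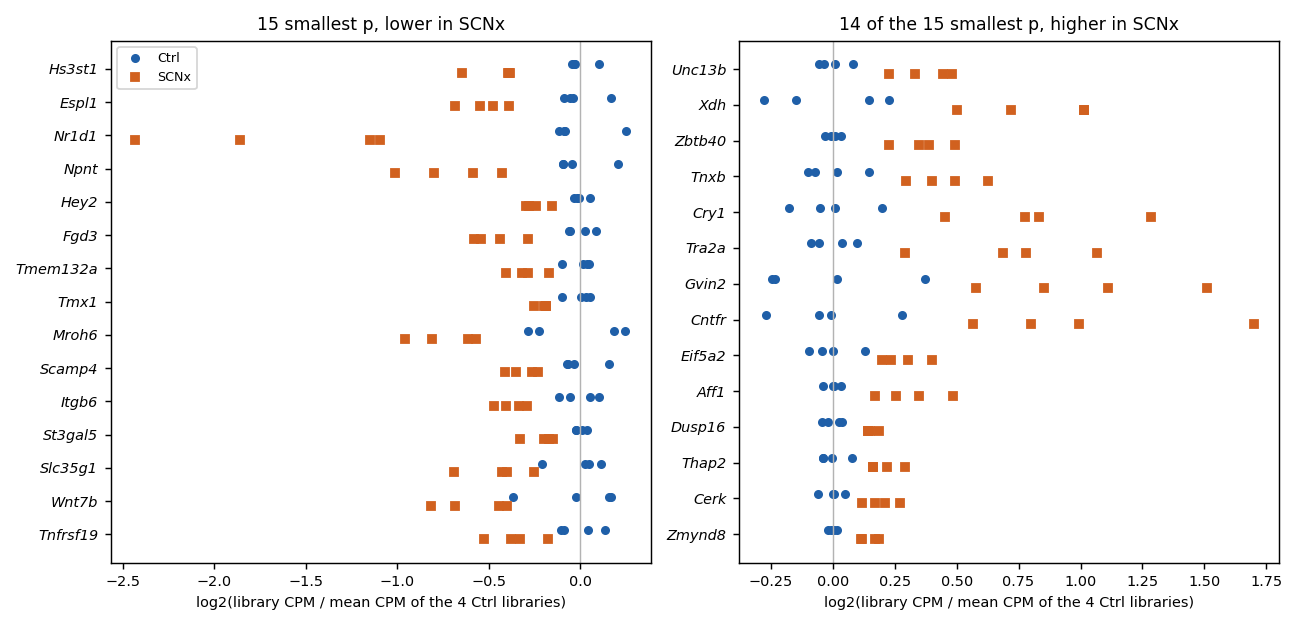
Each row is 1 of the genes with the smallest p, 15 lower and 14 higher in SCNx, and each point is 1 library (circles Ctrl, squares SCNx), plotted as log2 of its CPM over the mean CPM of the 4 Ctrl libraries. The groups do not overlap in any row, and Nr1d1 spreads widest among the lower genes, from 14.4 to 36.4 CPM in SCNx. The rows were chosen by p in this comparison, so the separation is a description.

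Genes of the pathway lists came to 435 tested genes in 35 lists, of which 0 were called in edgeR. At an unadjusted p under 0.05 there were 19 lower and 18 higher (4.37% and 4.14%), against 2.19% and 2.37% of all genes. Without overlap lay 6 below Ctrl and 5 above (1.38% and 1.15%), near the 1.48% and 1.4% of all genes. Without both brain-rich libraries, 27 and 17 of 428 were at that p (6.31% and 3.97%), against 2.11% and 1.83% of all genes. The lists were chosen with earlier results of these data known, so shares above those of all genes can follow in part from that choice. The lists for fluid secretion lay mostly below 0 by small amounts, while of all 14163 genes 6309 lay below 0 and 7854 above. SCNx CT32, the library lowest in the epithelial markers, enters these list values, and its part in them was not tested. Of 14 genes of the sodium-potassium pump and the SLC12 cotransporters, which drive fluid secretion, 10 had a log2 fold change below 0 with a median of -0.11, against 0.02 over all genes. Its pump subunits Atp1b2 and Atp1b3 were at an unadjusted p of 0.0436 and 0.0425, at 331 to 361 CPM in Ctrl against 275 to 345 CPM in SCNx for Atp1b2. All 14 drug and anion transporters of the blood-CSF barrier lay below 0 (median -0.14). Slc29a4, a monoamine transporter, measured 308, 320.6, 312 and 368 CPM in Ctrl and 275, 259, 283 and 191 CPM in SCNx, without overlap (-0.38 ± 0.13, edgeR adjusted p = 0.779). Slc22a8, the organic anion transporter OAT3, measured 61.8, 60.5, 56.0 and 66.0 CPM in Ctrl and 45.7, 66.7, 49.0 and 46.9 CPM in SCNx, where only SCNx CT8 lay within or above the Ctrl range (-0.23 ± 0.13, edgeR adjusted p = 0.779). Slc22a6, with a log2 fold change of -2.58 ± 1.08, rested on 9.0 CPM in Ctrl CT4.

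Slc5a5, the sodium iodide symporter, measured 65.3, 71.7, 64.8 and 68.6 CPM in Ctrl and 54.5, 60.6, 59.8 and 51.0 CPM in SCNx, again without overlap (-0.26 ± 0.07). Slc2a1, the glucose transporter GLUT1, lay at 98.1 to 118 CPM in Ctrl and 85.1 to 104.1 CPM in SCNx (-0.21 ± 0.08). Lrrc8a, a subunit of volume-regulated anion channels, differed by only -0.11 ± 0.04 without overlap. Of 14 abundant secreted products 12 lay below 0 (median -0.18), among them the protease inhibitor Cst3 at 574 to 634 CPM in Ctrl and 466 to 586 CPM in SCNx. Tight junction genes (9 of 12 below 0, median -0.15) and folate and vitamin transport (10 of 12, median -0.16) held 0 genes at an unadjusted p under 0.05. The epithelial markers themselves, 10 of 10 below 0, had a median of -0.16, and SCNx CT32 was the lowest library for their sum. The 13 mitochondrially encoded genes all lay below 0 (median -0.21), with mt-Nd6 at 202 to 327 CPM in Ctrl and 173 to 216 CPM in SCNx (edgeR adjusted p = 0.779). These genes are read from shared long transcripts and are not independent of each other. The mitochondrial share of counts was highest in Ctrl CT4 and lowest in Ctrl CT28, at 8.77% and 5.65%.

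**Figure D4:**
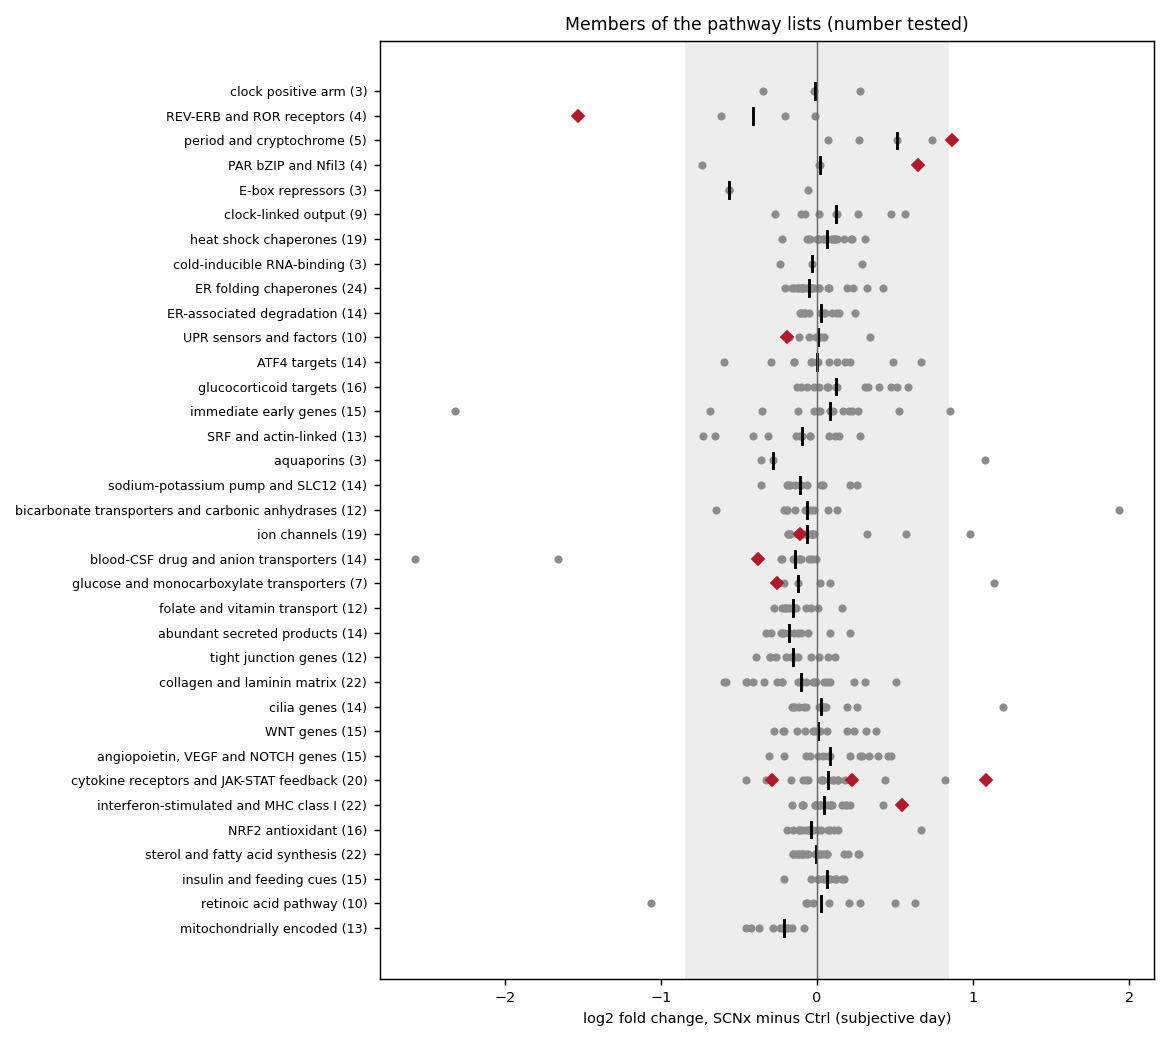
Log2 fold change (SCNx minus Ctrl) of every tested member of the 35 pathway lists, with the number tested after each name and black bars at the list medians. Grey dots are members whose groups overlap, red diamonds are those without overlap, and the grey band spans ± 0.841, the 95th percentile of the absolute value over all genes, with Nr1d1 and Cry1 among the diamonds outside it.

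Lists of stress and hormone response differed in their direction. Of 16 glucocorticoid targets, 12 lay above 0 (median 0.12), and 3 were at an unadjusted p under 0.05. Tsc22d3, an anti-inflammatory target of the glucocorticoid receptor also called Gilz, measured 16.2, 19.8, 15.7 and 19 CPM in Ctrl and 26.6, 24, 18.7 and 29 CPM in SCNx (0.47 ± 0.14, edgeR adjusted p = 0.779). Fkbp5, a co-chaperone of the receptor, lay at 7.97 to 11.1 CPM in Ctrl and 11.1 to 13.6 CPM in SCNx, the ranges meeting at their edges. The other was Sult1a1, a sulfotransferase (0.33 ± 0.11), while Sgk1, a kinase induced by the receptor, ranged from 241 to 431 CPM in Ctrl and from 243 to 402 CPM in SCNx. Of 19 heat shock chaperones 15 lay above 0 (median 0.07), with Hspa8 and Chordc1 at an unadjusted p of 0.0449 and 0.0389. The heat-inducible Hspa1a lay at 5.31 to 6.70 CPM in Ctrl and 4.82 to 6.64 CPM in SCNx. Among cold-inducible RNA-binding genes Cirbp lay at 30.9 to 39.8 CPM in Ctrl and 26.8 to 32.7 CPM in SCNx (-0.24 ± 0.09).

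The ATF4 targets (6 below 0 and 8 above), the sensors and factors of the unfolded protein response (5 and 5) and the NRF2 genes (9 and 7) were split between the directions. The 24 folding chaperones of the endoplasmic reticulum had 16 below 0 (median -0.05) and 0 at an unadjusted p under 0.05 in edgeR. Hspa5, the chaperone BiP, followed the hour in Ctrl, with 1196 and 1314 CPM at the earlier and 762 and 928 CPM at the later hour. In SCNx it stood at 1347, 848, 1414 and 1319 CPM, so only SCNx CT8 was near the later Ctrl level. Xbp1, a transcription factor of the unfolded protein response, lay at 90.4 to 125 CPM in Ctrl and 114 to 152 CPM in SCNx (0.34 ± 0.13), while Atf6b, a relative of the sensor ATF6, lay at 37.8 to 41.1 CPM in Ctrl and 31.3 to 36.2 CPM in SCNx, without overlap (-0.19 ± 0.06).

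Among 20 cytokine receptors and feedback genes of the JAK-STAT pathway, 4 were higher and 1 lower at an unadjusted p under 0.05. Beside Cntfr these were Lifr and Osmr, receptor chains of the interleukin-6 family like Cntfr, and Pdgfra, a growth factor receptor of fibroblasts. Osmr measured 8.39, 9.47, 10.6 and 5.88 CPM in Ctrl and 13.7, 10.2, 21.4 and 15.5 CPM in SCNx (0.82 ± 0.26). Pdgfra lay at 105 to 126 CPM in Ctrl and 128 to 152 CPM in SCNx, and the fibroblast markers summed to 330.5 to 433.9 CPM and to 352.1 to 437.8 CPM. Tnfrsf12a, the TWEAK receptor, was the lower one (-0.29 ± 0.11). Tek and Tie1, angiopoietin receptors of endothelium, had log2 fold changes of 0.46 ± 0.17 and 0.39 ± 0.16. The endothelial markers stood beside them at 67.5 to 121 CPM in Ctrl and 96.7 to 131 CPM in SCNx in sum, and their part in these values was not tested. Nlrc5, an activator of MHC class I genes, lay at 1.59 to 1.81 CPM in Ctrl and 1.85 to 3.0 CPM in SCNx without overlap. Its ranges came close together near the minimum level, where counting error is larger.

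Most other lists centred near 0. Of 22 collagen and laminin genes 16 lay below 0 (median -0.10), with the small proteoglycan Fmod at 57.8, 36.8, 26.7 and 30.5 CPM in Ctrl and 23.2 to 28.7 CPM in SCNx. Of 22 genes of sterol and fatty acid synthesis 11 lay on each side, and their regulator Srebf1 differed by -0.12 ± 0.05. Among WNT genes Lef1, a nuclear effector of the pathway, differed by -0.22 ± 0.08, and the ligand Wnt5a by 0.24 ± 0.09. Insulin and feeding cues had 13 of 15 genes above 0 with a median of 0.07. This list held 0 genes at an unadjusted p under 0.05 in edgeR, as did the immediate early genes, the ATF4 targets, ER-associated degradation, the NRF2 genes, the retinoic acid pathway, the bicarbonate transporters with carbonic anhydrases, and the cilia genes. Single members of these lists stood high in the brain-rich libraries. The immediate early gene Egr3 had 6.38 CPM in Ctrl CT4 and under 1 CPM in the other 7. Slc4a4, a sodium bicarbonate cotransporter also found in astrocytes, had 31.7 CPM in Ctrl CT4 and 166 CPM in SCNx CT32, and under 6 CPM elsewhere.

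The lesion effect in subjective day was then set against that of the 2 other windows, early night (CT12, CT16, CT36 and CT40) and late night (CT0, CT20, CT24 and CT44), in a fit over the 24 Ctrl and SCNx libraries. In edgeR 1 gene (0.00706%) differed, Cry1, and 1120 genes (7.91%) had an unadjusted p under 0.05, as had 1442 (10.2%) against early night alone, with 0 called, and 1127 (7.96%) against late night alone, with 1 called (0.00706%). The lesion effect on Cry1 was 0.87 ± 0.18 in subjective day, -0.52 ± 0.18 in early night and -0.59 ± 0.18 in late night, a difference of 1.42 ± 0.22 (edgeR adjusted p = 0.0425). On the scale of that fit Ctrl reached 18.5 to 35.4 CPM at the 8 night times, while SCNx stayed between 16.7 and 22.1 CPM at night, beside its 12.8 to 22.8 CPM on the scale of the day libraries. The call depended on the libraries. Leaving out each of the 24 in turn kept the difference between 1.25 and 1.54, but the call was lost in 19 of these fits and held only without Ctrl CT0, Ctrl CT24, Ctrl CT36, SCNx CT28 or SCNx CT44, with adjusted p from 0.0128 to 0.233. It was also lost without Ctrl CT4, Ctrl CT16, SCNx CT0 and SCNx CT32 together (edgeR adjusted p = 0.715). Of these, Ctrl CT16 and SCNx CT0 held hepatocyte markers, at 1853 and 10490 CPM in sum. Against early night alone (edgeR adjusted p = 0.102) and against late night alone (0.103) the call was lost too. For Nr1d1 the effects were -1.53, -0.41 and 1.5 in the 3 windows (difference -2.08 ± 0.62, edgeR adjusted p = 0.613). SCNx held 16.6 to 28.0 CPM of Nr1d1 at night, where Ctrl ran from 2.52 to 49.5 CPM. The Nr1d1 effect was negative in subjective day and early night and positive in late night. Its difference between the windows did not pass the test and follows in part from the choice of the window by its Ctrl level. Of the tested genes, Cry1 was the 1 that passed against both night windows together. Against late night alone the gene called was Nr1d2, the paralog of Nr1d1. Its lesion effect was -0.20 in subjective day and 1.5 in late night, a difference of -1.70 ± 0.26 (edgeR adjusted p = 0.0314), and most of that difference lay in late night, since the groups overlapped in the day.

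Among the next by p for this difference were Fgd3, Gm19522, Cntfr, Lynx1, Gal and Rassf3, none of which was called (edgeR adjusted p = 0.605 each). Fgd3 had effects of -0.46 in subjective day, 0.36 in early night and 0.03 in late night. Cntfr had 1.08, -0.70 and 0.03. Lynx1, a modulator of nicotinic receptors, lay at 145 to 169.8 CPM in Ctrl and 109.8 to 137 CPM in SCNx in the day. Gal, a neuropeptide, rested on SCNx CT32 alone, with 27.9 CPM there and at most 0.024 CPM in the other 7 day libraries.

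**Figure D5:**
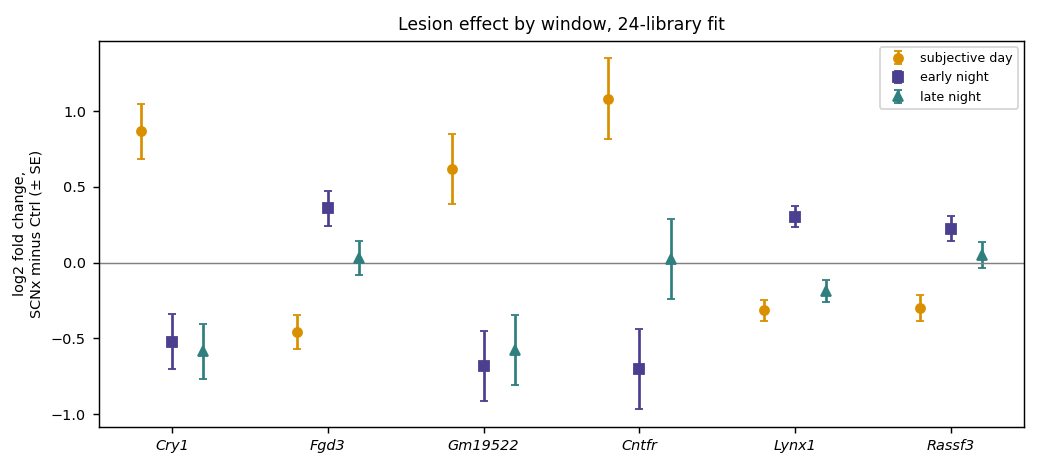
Lesion effect (log2 fold change, SCNx minus Ctrl, ± SE of the fit over 24 libraries) in subjective day (circles), early night (squares) and late night (triangles) for 6 of the 8 genes ranked first by p for a difference between the windows. Cry1 stands at 0.87 in subjective day and at -0.52 and -0.59 in the night windows. Gal, which rested on SCNx CT32, is not drawn.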

How the data were processed

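RNA-seq libraries of 12 Ctrl and 12 SCNx mice were available, with 2 further libraries of another mouse line not used here. The authors mapped reads with STAR to GRCm39 and deposited, unnormalized, the estimated counts per gene that Salmon 1.9.0 gave. They were rounded. Genes whose mean over the 8 day libraries reached 1 CPM were tested with edgeR 4.0.16 (TMM, quasi-likelihood F test, SCNx against Ctrl, no covariates, R 4.3.3), with Benjamini-Hochberg adjustment at 0.05. Levels are TMM-scaled CPM, marker sums CPM per library size. Each SE of an edgeR log2 fold change was derived from its F statistic, as the absolute log2 fold change over the square root of F. Windows were compared in a fit of 24 libraries with a mean per group and window. DESeq2 1.42.0 and limma 3.58.1 served as alternatives. In DESeq2 the replacement and flagging of outlier counts and the filter on mean level were switched off. The fits were tested on simulated data. Genes named were Nr1d1, Aqp1, genes of the lists (those called and up to 4 per list by p), the 15 smallest p in each direction and the 8 smallest for the difference between windows. One gene that these rules name is not reported here and enters no list count, although it stayed in the fits. Other genes, including Gm53034, Gm28925, Gm50174, Gm49388, Gm49909 and further list members, were chosen after their values were seen. Members and lists were chosen with earlier results of these data known. Each library is a separate mouse. With at least 42263400 counts per day library, counting error is small for genes at high levels and larger near the minimum of 1 CPM. The number of mice also limits precision.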

Additional observations from a re-analysis of the deposited data

Results flagged for a closer look

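Of 118 groups of 4 libraries checked (the 47 genes followed and 12 marker sums in each arm), 13 held a library far from the other 3, by Dixon's criterion, which flags about 1 in 20 groups by chance. In Ctrl these were Ctrl CT4 for the sums of neurons and cerebellum (356.7 CPM) and astrocytes (774.7 CPM), for Rorb (4.72 CPM) and for Scamp4 (23.5 CPM), Ctrl CT8 for Nr1d1 (92.5 CPM), and Ctrl CT28 for Hs3st1 (34 CPM) and Npnt (66.6 CPM). In SCNx they were SCNx CT32 for the sums of neurons and cerebellum (581.9 CPM), oligodendrocytes (280.9 CPM) and astrocytes (1013 CPM), for Rorb (2.98 CPM) and Hs3st1 (20.3 CPM), and SCNx CT8 for the melanocyte sum (57.9 CPM). Of that melanocyte sum, Dct alone made up 52.6 CPM. The lesion effect on Cry1 differed between subjective day and the other windows by 1.42 on the log2 scale (edgeR adjusted p = 0.0425). The effect on Nr1d2 differed between subjective day and late night by -1.70 (edgeR adjusted p = 0.0314), a call not refitted with single libraries left out.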

How the results depend on the processing

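The count of 0 genes called held in limma-trend and in the edgeR alternatives other than those named next. It was 23 in DESeq2 (2 of them clock genes described here), 1 with brain markers as covariate (Gm53007) and 3 without both brain-rich libraries and SCNx CT8, and at an adjusted p under 0.25 these settings gave 65, 9 and 15. The 646 genes at an unadjusted p under 0.05 became 1042 with library size only, 1036 with no filter, 1174 with brain markers as covariate, 1601 with 24 libraries in the fit and 1740 without both brain-rich libraries and SCNx CT8. Leaving out 1 library gave 343 (without Ctrl CT32) to 2196 (without SCNx CT8), and 0 calls each time. With a replicate block by circadian time, the paired fit, the count was 277, with 0 called, and 0 for the difference between windows. Deviations of mice of the same time correlated by -0.607, 0.314, 0.507 and -0.568 at CT4, CT8, CT28 and CT32. The brain transcripts of Ctrl CT4 and SCNx CT32 enter these correlations, which therefore cannot show whether circadian time pairs the mice. Genes without overlap, 407, became 663 with library size only and 1329 without both brain-rich libraries. For the difference between windows, DESeq2 gave 16 genes. The fit without Ctrl CT4, Ctrl CT16, SCNx CT0 and SCNx CT32 gave 0, as did that against early night alone. Leaving out 1 library gave 0 to 1.

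Of the 47 genes followed, 38 kept their sign in every setting. The log2 fold change turned sign for Clock with library size only (0.041), and without both brain-rich libraries and SCNx CT8 (0.175). Under the latter it also turned for Npas2 (0.030), Rora (0.010), Per3 (-0.154), Cry2 (-0.086), Tef (-0.333) and Hlf (-0.178). With library size only it turned for Rora (0.048) and Bhlhe40 (0.0073), and for Tef with no filter (-0.0039), with the cycle as covariate (-0.013) and without both brain-rich libraries (-0.059). Leaving out 1 library gave ranges of -0.037 to 0.780 for Arntl, -0.157 to 0.047 for Bhlhe40, -0.113 to 0.109 for Clock, -0.015 to 0.150 for Cry2, -0.119 to 0.107 for Hlf, -0.052 to 0.045 for Rora and -0.192 to 0.187 for Tef. The same ranges of the log2 marker sums were -1.25 to 1.35 for neurons and cerebellum, -0.623 to 0.635 for astrocytes, -0.433 to 0.333 for oligodendrocytes, -0.064 to 0.075 for ependyma, -0.078 to 0.053 for fibroblasts, -0.034 to 0.304 for smooth muscle and pericytes and -0.138 to 0.972 for melanocytes. On the scale of the mean of log2(CPM + 1) the astrocyte difference was -0.012. The causes of these changes were not tested. With 4 mice a group spread over 2 hours of the cycle, a gene that changes with the hour carries that change in its error.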
